A study of Mus musculus with 6 samples.

Results

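The regions described here are the strongest Arid3a CUT&Tag regions at gene ends that recurred in every library of the study. They were chosen from the 6 deposited peak lists in steps. Peaks of the 6 lists that shared at least 1 bp were merged into 79295 regions, and peaks were ranked within each list by the authors' −log10 q, as a percentile of that list. A region was a member if its highest peak stood at percentile 95 or more in all 6 lists and it overlapped the window of 1000 bp either side of an end of a protein-coding gene of the mm10 gene table. Regions over a gap of 1000 bp or less between adjacent protein-coding genes were left out. Of the 29602 regions with a peak in all 6 lists, 1525 passed the percentile, 806 of these lay at a gene end and 123 of those lay over a narrow gap, which left 683 members at 760 genes. The rule used peak strength and recurrence, so these 2 properties of the members are described without a test.

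CUT&Tag directs a transposase to a chromatin protein with an antibody and sequences the DNA cut around it. It was applied to commercially obtained primary mouse vascular smooth muscle cells (VSMCs), which contract the wall of arteries, with 10000 cells per assay. All 6 libraries carry labels of cells transfected for 24 h. The 3 NC-labelled libraries are labelled as given a negative control siRNA, and the 3 siRNA-labelled libraries as given siRNA 1, 2 or 3 against Arid3a. The protocols describe 36 h of angiotensin II for these cells, an in vitro model of abdominal aortic aneurysm, but which libraries were exposed is not given in the labels. Whether the libraries came from separate cultures is not stated either, so p-values here measure only the spread between libraries, which may be technical. The names of the peaks go against the labels: within every list they name the opposite group's library of that replicate number. Groups follow the sample labels, and if the names inside the lists were the true ones, every direction between the groups would be the opposite.

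Arid3a is a transcription factor named for its AT-rich interaction domain (ARID), a DNA-binding fold that prefers AT-rich sequence. It is best known from lymphocytes and stem cells, where it acts in immunoglobulin transcription and in lineage choice. Most mammalian promoters are of the opposite composition, being rich in G+C and CpG. They commonly carry GC boxes (GGGCGG), bound by Sp/KLF factors, and CCAAT boxes (ATTGG on the other strand), bound by NF-Y. A TATA box (TATAAA) is present in a minority.

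Promoter sequences of 5 members show what lay under the summits. They are RefSeq windows of GRCm38.p6, the assembly of mm10, running from 250 bases before to 50 after a transcription start, printed 5′ to 3′ on the strand of the gene. Capitals mark the CCAAT, GC and TATA boxes on either strand. They also mark an AT-rich motif of the kind ARID proteins prefer, AATTAA, and a second such motif, ATTAAA, whose matches can overlap. Hmgb2, Xpo1 and Ptp4a1 are the highest-ranked members whose summit lay inside such a window. Zfyve16 is shown because its summit differed between the groups, and Gpx1 because its window held both AT-rich motifs together with the summit. Hmgb2 (chr8:57511593-57511892, plus strand) had its median summit 96.5 bases before the start. For Xpo1 (chr11:23255791-23256090, plus strand) it lay 150 bases before the start of this entry. For Ptp4a1 (chr1:30949706-30950005, minus strand) it lay 169 bases before. For Zfyve16 (chr13:92530761-92531060, minus strand) it lay 217.5 bases before. The Gpx1 summit (chr9:108338830-108339129, plus strand) lay 47 bases after the start.
Hmgb2: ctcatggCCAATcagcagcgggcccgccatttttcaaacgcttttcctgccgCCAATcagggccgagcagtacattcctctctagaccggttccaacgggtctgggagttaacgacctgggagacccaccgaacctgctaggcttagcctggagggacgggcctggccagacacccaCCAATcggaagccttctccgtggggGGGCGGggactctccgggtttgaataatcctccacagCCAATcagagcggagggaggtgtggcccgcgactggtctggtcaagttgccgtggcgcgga
Xpo1: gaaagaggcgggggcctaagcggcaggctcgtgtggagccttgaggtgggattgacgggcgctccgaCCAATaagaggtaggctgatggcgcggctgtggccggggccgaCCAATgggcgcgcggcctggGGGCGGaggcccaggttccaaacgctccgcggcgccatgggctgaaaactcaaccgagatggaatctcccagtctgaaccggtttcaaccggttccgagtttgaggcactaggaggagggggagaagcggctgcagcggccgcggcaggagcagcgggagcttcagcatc
Ptp4a1: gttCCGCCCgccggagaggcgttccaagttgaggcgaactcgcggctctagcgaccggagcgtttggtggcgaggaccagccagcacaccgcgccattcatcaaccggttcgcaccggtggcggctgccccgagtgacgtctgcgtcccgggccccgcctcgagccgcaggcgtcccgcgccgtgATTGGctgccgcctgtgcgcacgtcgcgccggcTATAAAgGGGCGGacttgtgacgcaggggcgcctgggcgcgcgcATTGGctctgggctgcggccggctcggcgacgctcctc
Zfyve16: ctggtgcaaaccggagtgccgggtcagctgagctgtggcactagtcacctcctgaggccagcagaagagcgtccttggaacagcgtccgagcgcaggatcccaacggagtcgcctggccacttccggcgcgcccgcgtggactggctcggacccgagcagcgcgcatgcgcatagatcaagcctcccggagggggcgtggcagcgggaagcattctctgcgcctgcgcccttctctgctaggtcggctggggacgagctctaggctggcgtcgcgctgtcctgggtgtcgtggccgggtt
Gpx1: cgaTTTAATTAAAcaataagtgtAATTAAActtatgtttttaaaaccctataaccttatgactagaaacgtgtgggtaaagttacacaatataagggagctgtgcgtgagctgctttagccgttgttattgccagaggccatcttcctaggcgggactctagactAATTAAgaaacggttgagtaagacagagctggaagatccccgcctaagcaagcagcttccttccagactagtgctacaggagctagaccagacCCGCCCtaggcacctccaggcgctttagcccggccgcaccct
The Hmgb2 window held 4 matches of ATTGG, those of Xpo1 and Ptp4a1 held 2 each, and those of Zfyve16 and Gpx1 held 0. GGGCGG matched once in Hmgb2, Xpo1 and Gpx1 and at 2 places in Ptp4a1, which also had 1 TATAAA. The Zfyve16 window matched none of the 5 motifs. Gpx1 alone of the 5 held AT-rich matches, 4 of AATTAA and 3 of ATTAAA, in a window of 47.0% G+C against 62.0% to 72.3% in the others.

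Some facts of the whole series bear on the values below. The lists held 43834 to 51682 peaks each. Total reads were not used here, and a measure of depth came from the columns of the peak caller: from the fold and the −log10 p of a peak, its summit fragments (a whole number) and its local background were solved, for 100% of peaks. Summit fragments do not tell more bound cells from more signal per cell. The background ran from 0.621 to 0.673 fragments per base in the NC-labelled group and from 0.475 to 0.538 in the siRNA-labelled group, a ratio of 1.31 between the means. Fragments below are not scaled for this unless stated, and before scaling all NC-labelled values lay above all siRNA-labelled values in 30.5% of the 29602 shared regions and in 358 of 683 members (52.4%). Library 1 of the siRNA-labelled group stood apart from libraries 2 and 3, and calls between the groups are given with and without it. As a check of the cell label, 6 of 10 smooth muscle marker genes had a gene-end peak in all 6 lists (Acta2, Tagln, Myl9, Lmod1, Smtn and Cald1), while Myh11 and Des had none in any list. The counts were 0 of 8 for endothelial, 3 of 8 for macrophage, 2 of 6 for fibroblast and 0 of 6 for T cell markers, and no marker of any list had a member. Of all protein-coding genes, 37.4% had a gene-end region shared by all 6 lists outside narrow gaps, and 3.47% had a member. The macrophage and fibroblast counts lay near the first of these shares, and the lists are short, so this is a weak check of the label. Arid3a itself was not a member: the region at its gene end held 35, 36 and 41 summit fragments against 19, 22 and 34, and its smallest percentile was 33.2. No transcript was measured, and the depth of the knockdown was not checked by these values.

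The members took up between 1.38% and 1.62% of the peaks of a list and had tall summits at closely matching positions. Their median summit held 130, 137 and 126 fragments in NC-labelled libraries 1, 2 and 3, while siRNA-labelled libraries 1, 2 and 3 had 98, 108 and 117, with single summits from 52 to 819. The other 7353 regions with a peak in all 6 lists at a gene end outside narrow gaps had medians of 34, 36 and 32 against 25, 28 and 31. Members were also wider, with a median of 1048 bp (lowest 403, highest 2404) against 925 bp for the others. In 627 of 683 members (91.8%) each list contributed exactly 1 peak. The 6 summits of a member lay within 100 bp of each other in 436 of 683 cases (63.8%) against 27.0% of the other regions, and the median spread of the 6 summits was 75 bp against 166 bp. Over the bands of strength this spread ran from 278 bp below percentile 25 to 60 bp above percentile 99, each band lower than the one before. After scaling to the library median, a member varied between libraries of 1 group with a median coefficient of variation of 6.52% (NC-labelled) and 8.31% (siRNA-labelled, n = 3 libraries each).

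Values close to the threshold show where membership stopped. Just inside it stood Atxn7l3, with 109, 110 and 108 against 78, 88 and 108 summit fragments, and Gnb2, with 143, 140 and 119 against 69, 87 and 122 and the lowest smallest percentile of all, 95.0084. Mphosph8, Zfp248 and Skap2 were the other members just inside. Just outside stood Ube3a, with 69, 103 and 81 against 59, 68 and 78, and Trpc4ap, Map3k4, Capn5 and Txndc2, all at smallest percentiles between 94.9692 and 94.9863. Gnb2 held more fragments in the NC-labelled libraries than any of these 5, and a single siRNA-labelled library set its rank.

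The highest-ranked member lay over the end of Lars2, which encodes the mitochondrial leucyl-tRNA synthetase. This region (chr9:123461791-123462193) held 807, 819 and 781 summit fragments in NC-labelled libraries 1, 2 and 3, against 642, 590 and 644 for siRNA-labelled libraries 1, 2 and 3, an order kept in every list of values below. It was also the narrowest member, at 403 bp, its 6 summits fell within 1 bp, and its summit lay 654.5 bp before the end of the gene, inside it. No list of mm10 regions prone to artefactual signal was applied here, so whether this narrow, tall region is one of them was not tested. Hmgb2, a high mobility group protein that bends DNA, followed (chr8:57511161-57512316) with 712, 745 and 690 against 691, 769 and 772 fragments. Here the groups overlapped before scaling, and the 2 highest values were siRNA-labelled. Usp22, the ubiquitin protease of the SAGA coactivator (chr11:61174737-61175714), held 615, 679 and 610 against 485, 562 and 591. Xpo1, the main nuclear export receptor (chr11:23255386-23256417), held 714, 723 and 712 against 529, 571 and 612, with all 6 summits on the same base. In both genes each NC-labelled value lay above each siRNA-labelled value before scaling. Ptp4a1, a membrane-anchored protein phosphatase (chr1:30949448-30950341), held 544, 529 and 505 against 417, 486 and 540, so the groups overlapped. The 6 summits of Sun2, a protein of the inner nuclear membrane that links it to the cytoskeleton, were also on 1 base, with 682, 719 and 635 against 474, 612 and 662 fragments.

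Below these came a group of regions with 217 to 495 summit fragments. It included Trim41, a ubiquitin ligase, Oga, the enzyme that removes O-GlcNAc, and Stat3, the transcription factor of interleukin-6 type signalling, with 375, 442 and 368 against 315, 385 and 422. Hebp1, Nub1, Slc43a2, Rab5c, Gpcpd1, Mif, Emd, Mthfd1, Zfp948, Arhgap17, Ep400, Mt2, Zfp532, Odc1 and Zfyve16 were also among the 25 members of the highest rank. They range from enzymes of folate (Mthfd1) and polyamine synthesis (Odc1) to the nuclear envelope protein emerin (Emd), a metallothionein (Mt2) and a chromatin remodeller (Ep400). Of the 25, 20 lay nearest a transcription start, 1 nearest the end of transcription and 4 at a gene whose strand was not given. All 25 had their 6 summits within 118 bp, and in 9 they fell within 3 bp. Before scaling, the NC-labelled values lay wholly above the siRNA-labelled values in 12 of the 25, beside the 30.5% of all shared regions and 52.4% of members given above. After scaling, the median log2 difference of the 25 was 0.08, on the siRNA-labelled side.

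**Figure D1:**
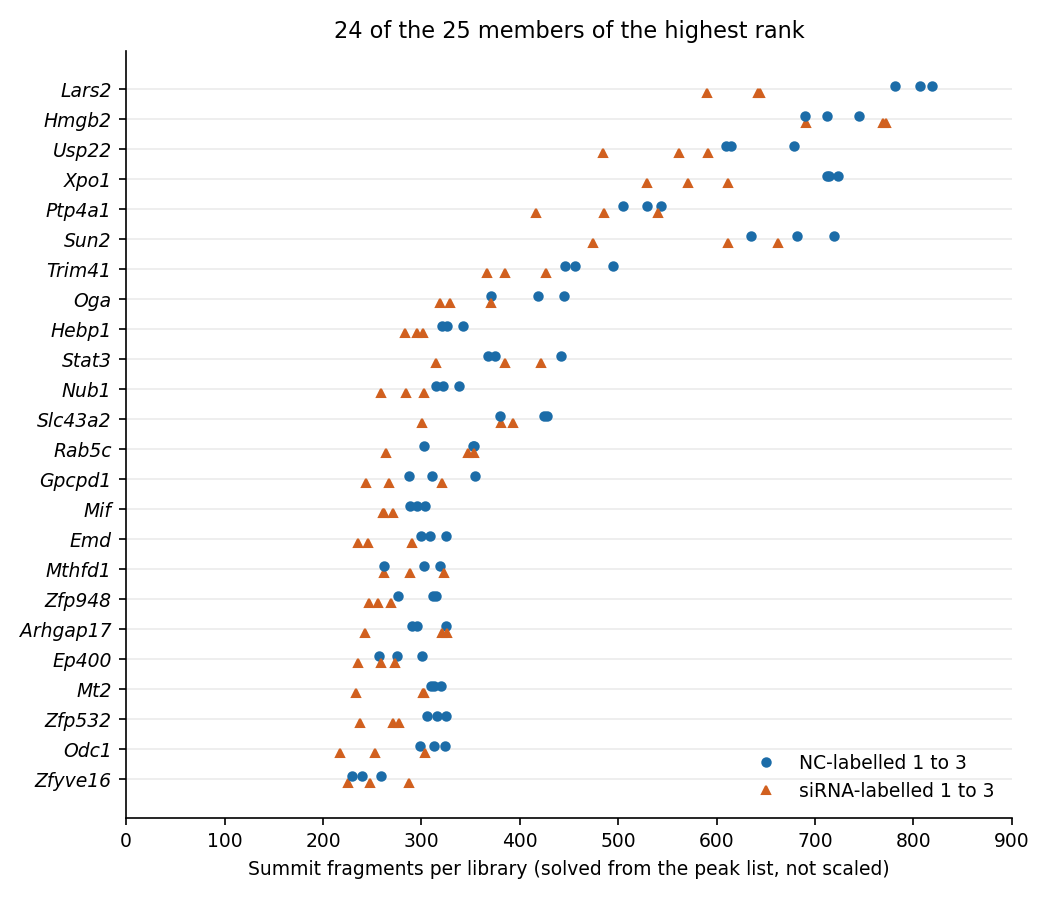
Summit fragments of 24 of the 25 members of the highest rank, not scaled for depth. Each row is 1 member, circles are the 3 NC-labelled and triangles the 3 siRNA-labelled libraries. Lars2 stands highest at 590 to 819 fragments, and Hmgb2 is the row near the top whose triangles reach beyond its circles.

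The gene table does not say at which end of a gene transcription starts, so strand was taken from the RefSeq promoter entries, which gave it for 17492 of 21887 protein-coding genes. Although the rule took either end of a gene, the members lay almost wholly at starts. Of 562 members with a known strand, 550 (97.9%, 95% Wilson interval 96.3% to 98.8%) had their median summit nearer a start, and 12 nearer the end of transcription. Among the other shared gene-end regions the share was 92.5% (91.8% to 93.1%, 5446 of 5890). By strength it ran from 85.8% in regions below percentile 25 to 96.2% between 90 and 95, and was 98.6%, 97.4% and 96.9% in the 3 bands that hold the members. These intervals cover counting error only, and neighbouring genes can share a region.

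Within the start regions the summits of members sat further upstream. The summit lay upstream of the nearest start in 277 of 550 members (50.4%) against 37.7% of the others, and this share ran over the bands from 30.3% to 52.0%. Members within 100 bp of the start made up 29.5% against 34.2%, and those within 250 bp 68.9% against 69.6%. The excess lay mainly between 300 and 200 bp upstream: the bins from −300 to −250 and from −250 to −200 bp held 6.18% and 7.82% of members against 2.15% and 3.42% of the others. Directly downstream, from 50 to 100 bp, members were fewer, at 9.09% against 10.8%. Within 4 genes there were 2 members each. For Mnt, a MAX-binding repressor, 1 region lay 211 bp upstream of the start, with 285, 297 and 279 against 180, 185 and 206 fragments, and a stronger one 1356 bp downstream, with 364, 398 and 333 against 249, 297 and 315. Amd1, an enzyme of polyamine synthesis, Rhoa, a GTPase of actin control, and Ttc16 were the others.

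**Figure D2:**
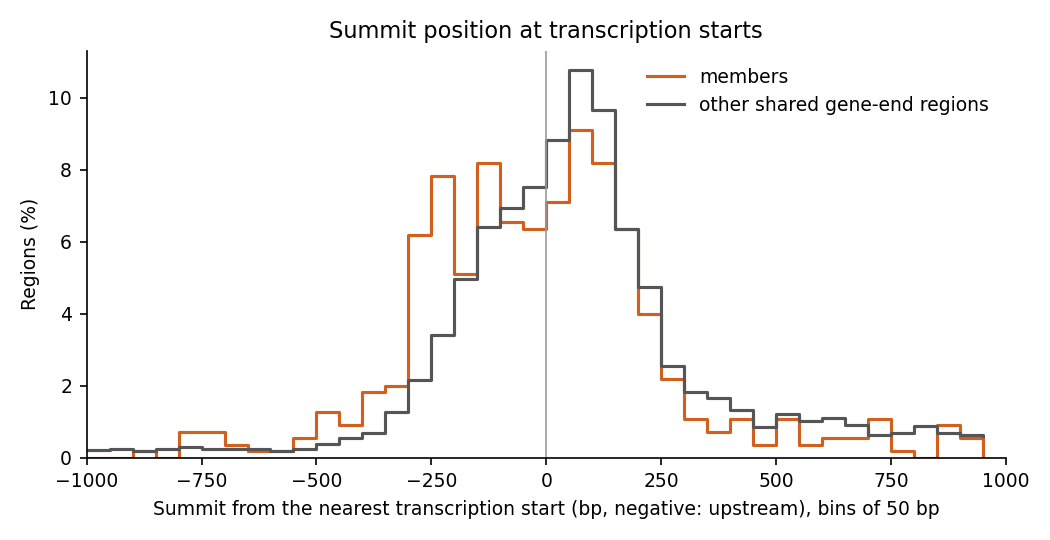
Position of the median summit relative to the nearest transcription start, for 550 members and 5446 other shared gene-end regions, as percent of each set in bins of 50 bp. The start is the boundary of the gene, and other RefSeq starts were not used. Members peak on both sides of the start, with more regions between 300 and 200 bp upstream (6.18% and 7.82% per bin) than the others (2.15% and 3.42%).

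The 12 members nearest the end of transcription lay at Lars2, Slc34a3, Dlx2, Fam20a, Hspb7, Atf6b, Ajm1, H1f2, Btd, Tmem107, Bola1 and Ifitm2. In 4 of them (Ajm1, H1f2, Bola1 and Ifitm2) the region also overlapped a promoter window, of Phpt1 in the case of Ajm1 and of the same gene in the other 3. The remaining 8 overlapped no promoter window of the table. After Lars2 the strongest was at Slc34a3, a phosphate transporter, with 260, 273 and 243 against 223, 263 and 282 summit fragments. Dlx2, a homeobox factor, held 220, 256 and 240 against 199, 159 and 173. Before scaling the groups overlapped in the first of these and not in the second, a separation seen in 52.4% of members. After scaling Dlx2 held 199, 224 and 225 against 246, 173 and 174, so its groups overlapped. The Tmem107 region also overlapped the small nucleolar RNA gene Snord118, and the Fam20a region also touched the window of Prkar1a.

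Members more often lay over genes of some non-coding classes. An annotated lncRNA gene overlapped 138 of 683 members (20.2%) against 12.9% of the other shared gene-end regions. Genes annotated as small nuclear RNA were overlapped by 3 members (0.439%) against 2 of 7353 others (0.0272%). Rnu12, a component of the minor spliceosome, lay under the Poldip3 region. Rnu7, which acts in histone mRNA processing, lay under the region of Grcc10 and Atn1, and Rnu3a under the Gtf3c6 region. Genes annotated as small nucleolar RNA were overlapped by 2 members (0.293%) against 5 others (0.0680%). Pseudogenes were overlapped by 7 members (1.02%) against 17 others (0.231%). These counts are small. Overlap was counted over the whole region, and members were wider (median 1048 bp against 925 bp). The part of width in these shares was not tested. miRNA hairpins lay under 3 members (0.439% against 0.449%), and tRNA genes were at 0.293% against 0.340%. Median gene length was 22267 bp for member genes, 23906.5 bp for genes of the other shared regions and 17169 bp for all protein-coding genes. By chromosome, members made up 8.50% of all shared gene-end regions, with the highest share on chromosome 17 (49 of 384, 12.8%) and the lowest on chromosomes 13 (11 of 294, 3.74%) and X (8 of 209, 3.83%).

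Promoter sequence was read for the 534 members that overlap 1 or more of the RefSeq windows, 667 windows in all. Each motif was searched on both strands, and the shares are set beside those of 5965 windows of the other shared gene-end regions and of all 21238 windows of the same length. ATTGG was found in 318 of the 667 windows (47.7%) against 39.1% and 38.2%. By strength it ran from 33.3% in regions below percentile 25 to 56.3% above percentile 99. Windows with 2 or more ATTGG, counted after this share had been seen, made up 27.9% of members' windows against 15.4% and 12.8%. In the 278 windows that contain the summit, 140 held ATTGG, and the nearest match lay a median of 47.5 bases from the summit (quartiles 24.5 and 95.25). This distance was not compared with other regions or motifs, and summit and match were confined to the same window. It therefore does not show that summits centre on the match. GGGCGG was found in 78.6% against 70.7% and 46.2%. G+C content had a median of 64.0% against 62.3% and 56.3%, and the CpG observed over expected ratio was 0.815 against 0.805 and 0.567, so members differed far more from all promoters than from the weaker shared regions.

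Both AT-rich motifs marked in the printed windows, and the TATA box, were less frequent in members' windows than in either comparison set, while another AT-rich motif, ATCAAA, lay between the sets. AATTAA was found in 2.70% against 5.20% and 9.52%, and ATTAAA in 4.65% against 6.37% and 11.7%. Where the summit itself lay in the window, 2 of 278 members' windows held AATTAA (0.719%) and 5 held ATTAAA (1.80%). The comparison sets were not narrowed to windows with a summit, so these 2 shares have no like value beside them. TATAAA was at 4.80% against 5.82% and 12.6%, and ATCAAA at 7.20% against 6.07% and 10.0%. The NRF1 half-palindrome GCGCATGC (7.20% against 6.40% and 3.52%), the E-box CACGTG (11.7% against 10.9% and 7.84%) and the cyclic AMP element TGACGTCA (3.90% against 3.74% and 2.24%) differed little from the weaker shared regions. The ETS motif CCGGAAGT was rarer than there (7.80% against 9.82% and 5.15%), as was the YY1 motif AAGATGGC (3.00% against 4.96% and 3.05%). The AP-1 motif TGANTCA was in 4.80% against 4.64% and 6.99%, and the CArG box of serum response factor, a regulator of smooth muscle genes, in 1.5% against 1.07% and 1.53%. A match is a string of letters and not a bound site, and no match says nothing of the factor. G+C content differs between the 3 sets and moves with all of these shares, and its part in them was not tested. The members with the lowest CpG ratio were Serpina3i (0), Laptm4a (0.0924) and Ifitm2 (0.216), and those with the highest Pdcl (1.34), Zc3h8 (1.28) and Tsga10 (1.26).

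**Figure D3:**
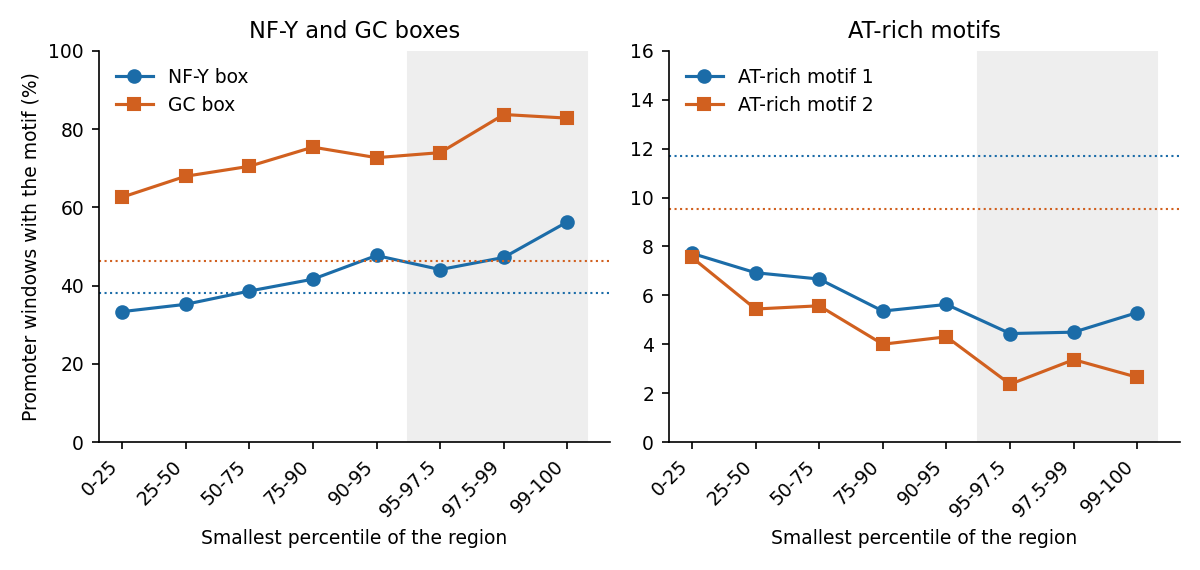
Share of promoter windows with a motif on either strand, by the smallest percentile of the region over the 6 lists. NF-Y box is ATTGG, GC box GGGCGG, AT-rich motif 1 ATTAAA and motif 2 AATTAA, dotted lines are all 21238 windows and the grey area holds the members. ATTGG runs from 33.3% to 56.3%, with 47.7% in the band just below the members and 44.1% in their lowest band. AATTAA runs from 7.55% to 2.65%.

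Gene classes were described with 30 lists, 21 of named genes and 9 by symbol pattern. A list's count is read beside 760 of 21887 protein-coding genes (3.47%), and beside the 9.27% of genes with a shared gene-end region that had a member. Of the 3027 listed genes, 148 had a member, and 612 member genes were in no list. These counts describe the lists, which overlap, and no test was made on them. The lists with the highest shares were heat shock and chaperone genes (9 of 36, 25%), immediate-early and AP-1 genes (9 of 40, 22.5%), chromatin modifiers and remodellers (15 of 85, 17.6%), protein phosphatases (9 of 53, 17.0%) and NF-kB and inflammatory genes (5 of 30, 16.7%). Among genes with a shared gene-end region these shares were 33.3%, 26.5%, 24.2%, 22.0% and 22.7%. On that baseline the Rab GTPases (24.2%) and replication-dependent histones (21.4%) stood at a similar level. The order by share of all listed genes also depended on the percentile. At the stricter threshold tried, which left 334 members, the immediate-early list had 2 of 40, below the chromatin (9 of 85), phosphatase (5 of 53) and actin (4 of 40) lists, while the heat shock list had 5 of 36. At percentile 90 the heat shock list had 15 of 36, the immediate-early list 16 of 40 and the unfolded protein list 12 of 30, the same share as the list before it.

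The heat shock list covers the chaperones that refold proteins and their co-factors. Its 9 genes were Hspa1b, Hspa8, Cct7, Stip1, Hsp90aa1, Bag3, Hspa9, Chordc1 and Hsph1. Hspa1b, an inducible Hsp70, held 267, 243 and 230 summit fragments against 188, 176 and 176. It has a near-identical neighbour, Hspa1a, and how reads that fit both were placed is not given in the sources used here, so the split between them is uncertain. Hspa8, the constitutive Hsp70, held 168, 183 and 148 against 149, 138 and 161. For Stip1, which hands clients from Hsp70 to Hsp90, the values were 165, 193 and 174 against 129, 140 and 144. Hsp90aa1, the inducible Hsp90, held 117, 135 and 102 against 90, 118 and 133. Before scaling the groups overlapped at Hspa8 and Hsp90aa1. At Hspa1b and Stip1 the NC-labelled values were all higher before scaling, as in 52.4% of all members. Of the kinases that sense unfolded protein in the endoplasmic reticulum, Eif2ak3 and Ern1 both had a member, with the disulfide isomerases Pdia4 and Pdia3 (4 of 30 genes of that response, 13.3%).

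Immediate-early genes are switched on within minutes of a growth or stress signal. Members lay at the transcription factors Egr1, Klf10, Jund and Junb, at the growth arrest genes Gadd45a and Gadd45b, at the mRNA decay factor Zfp36l2 and at the MAP kinase phosphatases Dusp1 and Dusp6, which also count as phosphatases. Dusp6 was the strongest, with 271, 295 and 253 against 235, 287 and 289 fragments. Klf10 followed with 179, 220 and 202 against 132, 186 and 219. At both the groups overlapped before scaling. Other phosphatases with a member included Ptp4a1, Ppp1cb, Ppp2r1a, Ppm1b, Ppp3cb and Ppp2ca. The NF-kB and inflammatory list was represented by Stat3, Birc3, Nfkbia, Relb and Socs3, which include the inhibitor of NF-kB (Nfkbia) and the feedback inhibitor of STAT3 (Socs3).

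Chromatin genes with a member were Hmgb2, Usp22, Hmgn1, Kdm4b, Hmgn2, Setd5, Kat6b, Hmga2, Ctcf, Hdac2, Chd1, Kmt2e, Kdm4a, Crebbp and Kdm3a. They span 4 high mobility group genes and the histone demethylases Kdm3a, Kdm4a and Kdm4b. Hmgn1, a nucleosome-binding protein, held 187, 214 and 182 against 121, 170 and 174 before scaling. The NC-labelled values were all higher there, as in 52.4% of all members. At Kmt2e the 6 summits lay farthest apart of all members, over 961 bp, followed by Syne3 (919 bp) and Sema4b (834 bp). The widest regions lay at Lgals1 (2404 bp), Tgif1 (2230 bp) and Ttll12 (2178 bp), and after Lars2 the narrowest at N6amt1 (469 bp) and Amd1 (482 bp). The 6 replication-dependent histone genes with a member (of 68) fell in 4 regions and belong to a family of near-identical copies, so their reads too may be split uncertainly.

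Genes of the cytoskeleton and of membrane traffic were also present. Genes of the actin cytoskeleton had 6 of 40 (15.0%): Limk1, Actn4, Zyx, Myh9, Rhoa and Ptk2. Limk1, the kinase that inactivates cofilin, held 224, 260 and 246 against 190, 212 and 228 fragments, and Myh9, a non-muscle myosin, 277, 248 and 233 against 157, 182 and 196. The Rab GTPases had 8 of 59 (13.6%), with Rab5a, Rab5b and Rab5c, all 3 of the early endosome, among them. TGF-beta and SMAD genes had 4 of 30 (Smad2, Tgif1, Smad1 and Ski), splicing factors 6 of 49, translation factors 4 of 38, nuclear transport 4 of 48 (Xpo1, Xpo6, Kpnb1 and Tnpo2), the p53 pathway 3 of 24 (Rrm2b, Trp53 and Fas) ubiquitin-specific proteases 4 of 41 and cell cycle genes 4 of 53 (Wee1, Ccng2, Cdkn1b and Cdkn2c). Among genes with a shared gene-end region, nuclear transport was at 11.1% and cell cycle genes at 9.52%, near the 9.27% of all such genes. The ARID family had 1 of 10, Arid4a, with 180, 222 and 200 against 172, 210 and 201.

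The remaining lists were near or below the share of all genes. Ubiquitin conjugation and SUMO genes had 0 of 50, although 40 of them had a shared gene-end region, and a count of 0 allows up to 6%. Mitochondrial ribosomal proteins had 0 of 78 (up to 3.85%), with a shared region at 49. Housekeeping reference genes had 0 of 18, with a shared region at 14. Contractile smooth muscle genes, which define the differentiated VSMC, had 0 of 20 (up to 15.0%), with a shared region at 11, and matrix genes had 2 of 37 (Fn1 and Tnc). Cytosolic ribosomal proteins had 3 of 83 (Rpl10a, Rpl27 and Rps19), proteasome subunits 1 of 49, aminoacyl-tRNA synthetases 1 of 37 (Lars2, the narrow region above), Hippo pathway genes 1 of 22 (Lats1) and RNA polymerase II machinery 2 of 50. The large symbol families were nearer the share of all genes, with solute carriers at 21 of 371 (5.66%) and Zfp genes at 20 of 397 (5.04%). Among genes with a shared gene-end region they were at 14.4% and 9.52%, beside 9.27% of all such genes. Olfactory receptors had 0 of 1110, and 3 had a shared region.

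**Figure D4:**
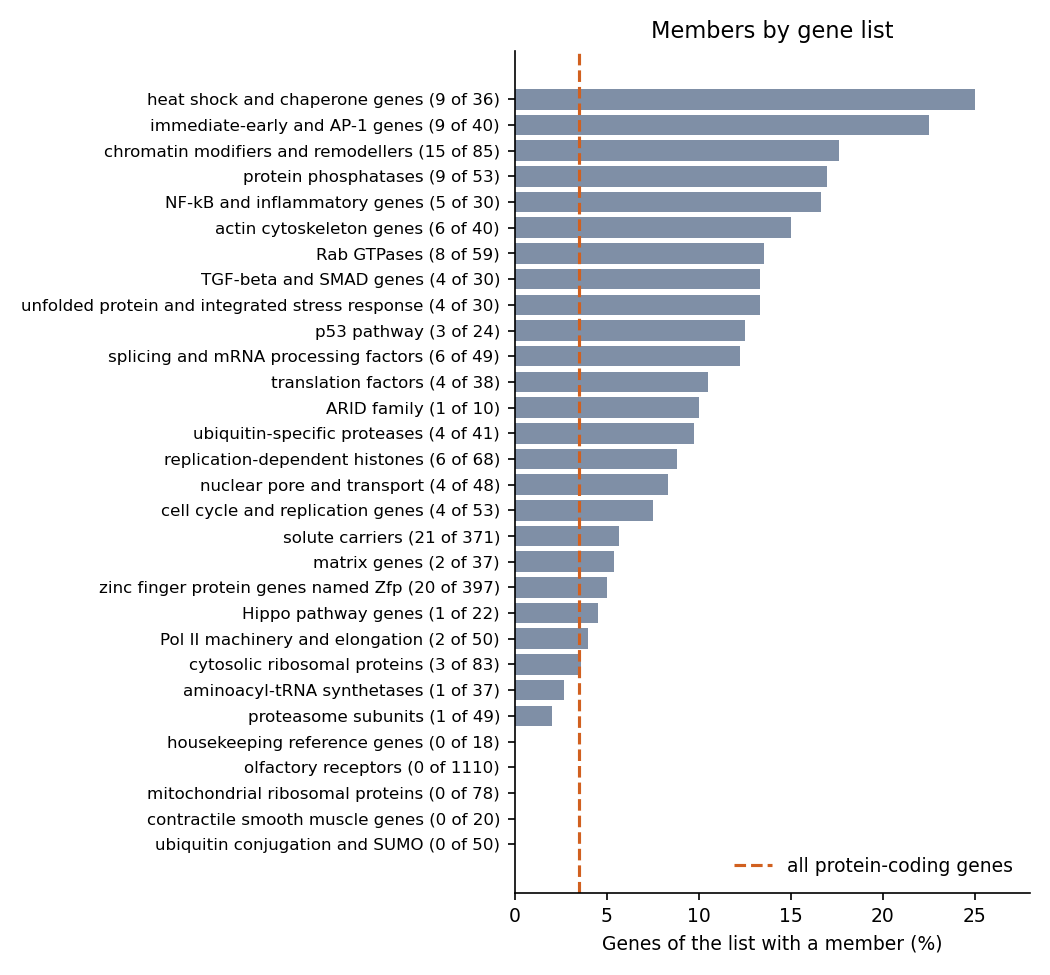
Percent of the genes of each list that had a member, with the number of genes in brackets, and the 3.47% of all protein-coding genes as a dashed line. Heat shock (25%) and immediate-early genes (22.5%) stand at the top, and 5 lists are at 0.

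The last question was whether the members differed between the groups once depth was taken out. Summit fragments were scaled to the median of all 29602 shared regions in each library, and log2(fragments + 1) was compared by limma with Benjamini-Hochberg adjustment over all of them. In all, 28 regions were called higher in the siRNA-labelled group (0.0946%) and 36 lower (0.122%) at an adjusted p under 0.05. Among the members 2 were higher and 3 lower. Since a member had to be strong in all 6 lists, a region lost in 1 group could not be a member. The median log2 difference of the members, siRNA-labelled minus NC-labelled, was 0.02 against 0.0017 over all regions, and 90% of members lay between −0.26 and 0.27. Members whose scaled values did not overlap between the groups numbered 79 higher (11.6%) and 59 lower (8.64%), where all regions gave 7.88% and 7.87%.

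Both regions that were higher have been shown by sequence above. At Hmgb2 the scaled summit fragments were 644, 652 and 646 for the NC-labelled group, against 853, 835 and 776. The log2 difference was 0.34 (SE 0.0538, limma adjusted p = 0.000305), or 1.27-fold, with no overlap between the groups. Zfyve16, an endosomal protein that binds SMAD4, rose from 217, 227 and 215 to 278, 269 and 289, a log2 difference of 0.34 (SE 0.0782, limma adjusted p = 0.0380). Of the 3 lower regions, that shared by Stub1, Rhbdl1 and Jmjd8 (chr17:25832622-25833617) had its summit nearest Stub1, a ubiquitin ligase that works with chaperones. Its scaled fragments were 253, 265 and 261 against 221, 176 and 199 (log2 difference −0.39, SE 0.0842, limma adjusted p = 0.0227). Nfe2l1, a transcription factor of proteasome genes, fell from 153, 167 and 162 to 136, 108 and 113 (−0.44, SE 0.101, limma adjusted p = 0.0380). Kdm3a, a histone H3 lysine demethylase, fell from 126, 98.8 and 121 to 81.7, 81.5 and 80.4 (−0.49, SE 0.114, limma adjusted p = 0.0397). All 3 siRNA-labelled values lay outside the NC-labelled range at each of the 5 regions.

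Hmgb2 alone of the 5 was past the threshold in all 13 alternatives, with log2 differences from 0.30 to 0.45 and adjusted p from 7.56e-06 to 0.0219. The other 4 each passed in 6 of 13 and kept their direction in all. The number of members called changed with any 1 library left out. It was 1 without NC-labelled library 1, 2 or 3 or siRNA-labelled library 2, and 3 without siRNA-labelled library 3. Without siRNA-labelled library 1 it was 44 (18 higher and 26 lower). Each of these fits also has fewer libraries, and the part of that in the numbers was not tested. The mean chi-square per member was 0.778 between siRNA-labelled libraries 2 and 3 and 0.758 to 0.809 between NC-labelled pairs, while siRNA-labelled library 1 had 1.43 and 1.3 with the other two. Its values with NC-labelled libraries 1, 2 and 3 were 1.3, 1.43 and 1.1, so by this measure it stood nearer to NC-labelled library 3 than to either library of its own group. Libraries 2 and 3 of that group had 1.18 to 1.92 with the NC-labelled libraries. siRNA-labelled libraries 2 and 3 name different siRNAs and were kept apart. Counted as 1 sample, they left 1 member called, Hmgb2. Scaling to the background in place of the median moved the median of all regions to 0.11 and gave 18 higher and 0 lower members.

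**Figure D5:**
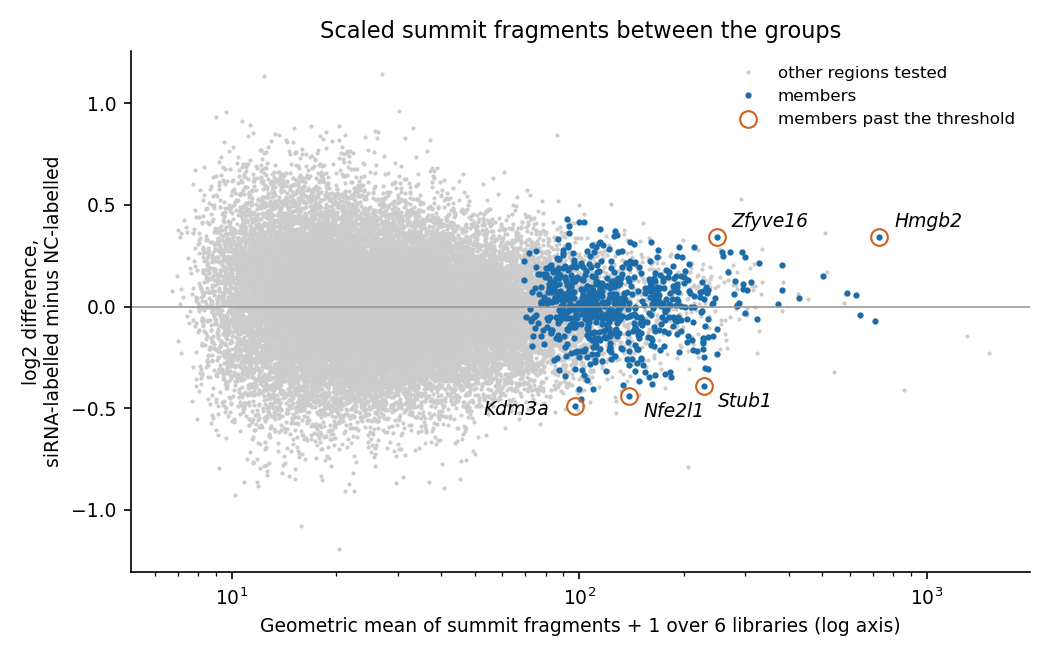
Log2 difference between the groups (siRNA-labelled minus NC-labelled, scaled summit fragments) against the geometric mean of fragments over 6 libraries on a log axis. Grey points are the other regions tested, blue points the 683 members and circles the 5 members past the threshold, with Hmgb2 standing out at the highest level among them.

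By gene list, the differences of the members were small beside their spread. The heat shock members had a median log2 difference of 0.01 (−0.16 to 0.37, 9 regions) and the immediate-early members −0.05 (−0.34 to 0.27, 9 regions), with 0 called in either. Chromatin genes had a median of −0.05 (15 regions), with Hmgb2 called higher and Kdm3a lower. The 4 nuclear transport regions had −0.13 and the 21 solute carrier regions 0.08, again with 0 called. Among the 25 members of the highest rank, Hmgb2 and Zfyve16 were called.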

How the data were processed

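Arid3a CUT&Tag was analysed from 6 lists of peaks, 1 per library, so the authors called peaks per library and not on pooled libraries. The submitters' processing notes name Bowtie2, Picard and MACS2 and the build mm10, while versions and options were not given in the sources used here. For each peak, the authors deposited an interval, a summit, a whole-number score, the fold at the summit (a ratio to local background in that library), the −log10 p-value and the −log10 q-value. The deposited −log10 q ranks peaks only within its own list. No control library without antibody was analysed here.

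Summit fragments k and background b were solved from fold = (k + 1) / (b + 1) and the Poisson tail, within a relative tolerance of 0.0002. Genes, strands and promoter sequences came from the RefSeq tables of GRCm38.p6, and coordinates are 1-based. Groups were compared with limma 3.58.1 in R 4.3.3 on log2(fragments + 1) scaled to the library median, 3 libraries against 3, with no filter on low summits and calls at an adjusted p under 0.05. The solver, the member rule and this fit were tested on simulated data. Python 3.11.15 with pandas 2.3.3 and SciPy 1.17.1 was used for the rest. A summit of few fragments has a large counting error, and members had 52 fragments or more in every library.

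The named genes are the 25 members with the highest value of their smallest percentile, the 5 regions on each side of the threshold, up to 4 members of each list by the same rank, called members, the 3 widest, the 3 narrowest, the 3 with summits farthest apart, the 3 highest and 3 lowest in CpG ratio, and Arid3a. Further list members are named to complete a count. The members and lists were chosen with earlier results of these data known. Alternatives changed the percentile, the window, the ranked column, the merging, the gaps, the libraries, the scaling, the pseudocount and the filters. Some items that this rule names are not reported here.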

Additional observations from a re-analysis of the deposited data

How the results depend on the processing

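The number of members followed the percentile: 1330 at percentile 90 and 334 at the stricter of the thresholds tried, with 276 and 74 listed genes with a member in place of 148. It stayed within 1.5 times of 683 for the other windows, the fold as ranked column, an overlap of 100 bp, other rules on gaps (613 and 806) and without any 1 library (687 to 736). The share nearest a start was 95.7% with windows of 2000 bp. With the summit in the promoter window, AATTAA was at 0.719% and ATTAAA at 1.80%. Counts of single gene lists moved by more than 1.5 times in 40 of 90 cases. All of these were at the other percentiles, where the number of members itself moved. With windows of 500 bp each list count stayed within 1.5 times.

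Calls between the groups depended on the setting. In place of 5 members and 64 regions in all, 18 and 132 were called when scaled to the background, 13 and 105 with a pseudocount of 5, and 1 and 21 with siRNA-labelled libraries 2 and 3 as 1 sample. Over all regions 98 were called with a mean of at least 20 fragments and 102 with peaks of −log10 q of at least 5. Leaving out each library in turn gave 1 to 44 members and 9 to 336 regions. The median of the members minus that of all regions, 0.02 on the log2 scale, was −0.01 with a pseudocount of 5 (−0.0139). The cause of these shifts was not tested. With the replicate number as a block, 7 members and 120 regions were called. Deviations of same-numbered libraries 1, 2 and 3 correlated at 0.04, 0.03 and −0.02 over all regions, and at 0.08, 0.15 and −0.11 over members. NC-labelled library 2 correlated best with siRNA-labelled library 3 (0.05 over all regions and 0.17 over members). Counting error lowers such correlations, so they do not settle whether the numbers pair the libraries.

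Depth limits the weaker regions most, and total reads, fragment lengths and a control without antibody were not used here.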
